A study of Mus musculus with 2 samples.

Results

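Perineurial cells were selected from single-cell RNA counts of mouse skeletal muscle as barcodes with RNA of at least 2 of the genes Itgb4, Cldn1, Moxd1, Lypd2 and Krt19. These 5 genes had to hold at least 3 UMIs (unique molecular identifiers, each a counted transcript) in a barcode, and Pecam1, Ptprc and Sox10, which mark endothelial, blood and glial cells, had to be at 0. The barcode also needed at least 500 detected genes, at least 1000 UMIs and at most 10% mitochondrial UMIs. The rule took 208 of 27383 passing barcodes, 107 of 9732 in the library labelled WT and 101 of 17651 in the library labelled KO. These are called the WT library and the KO library. Both came from tibialis anterior muscle of male mice, with 10 muscles of 5 mice pooled per strain. The labels give the genotypes only as WT and KO and the tissue state as ND, which is not spelled out; the deleted gene, the cells in which it was removed and the age of the mice are not given in the sources used here. The series title concerns IGF-I made by resident mesenchymal progenitors, and the labels call the cells FAPs (fibro-adipogenic progenitors, the resident mesenchymal cells of muscle), but the muscle digest was sorted for viability alone. With 1 pooled library per genotype there is no replicate, so no test between the genotypes was possible, and every interval below covers counting error alone. Paired values are given with the WT library first.

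The perineurium is the cellular sheath around each bundle of nerve fibres. Its flattened cells lie in concentric layers, are coated by basement membrane on both faces and are joined by tight and gap junctions. Together with the vessels inside the nerve they form the blood-nerve barrier, which controls what reaches the axons, so junction, transporter and basement membrane genes are the ones most often studied in them. Tenocytes and FAPs are the stromal cells most like them in muscle, and Schwann cells are the glia they enclose.

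The library labelled KO held more UMIs, with 101570863 UMIs in 19531 barcodes against 38014703 UMIs in 11360 barcodes. The labels give 40000 reads per cell for both libraries, and the source of the difference in UMIs was not tested. Members held from 1127 to 11302 UMIs with a median of 3390 in the WT library, and from 1014 to 21747 with a median of 6619 in the KO library. Other barcodes had medians of 3085 and 4472 UMIs. The libraries shared 61 barcode sequences, of which 1 belonged to a member of the WT library. Levels are CPM, the summed UMIs of a gene relative to all summed UMIs of the same barcodes, and 1 UMI among the members was worth 2.53 and 1.37 CPM.

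The genes of the rule define the members and are given as a description. Cldn1, a tight junction claudin, was at 1056 and 494 CPM in 101 and 80 members, and Itgb4, the integrin chain that anchors cells to laminin, was at 821 and 614 CPM in 90 and 78 members. Moxd1, a monooxygenase-like enzyme gene, was at 409 and 277 CPM, Lypd2, which encodes a small Ly6-type protein, at 270.3 and 123 CPM, and the keratin gene Krt19 at 83.4 and 122 CPM. All 5 were found together in 10 and 12 members, whereas 36 and 49 members held the minimum of 2 genes. The rule UMIs of a member ran from 3 to 66 and from 3 to 58, with a median of 8 in both libraries. At the edge of the rule, 11 and 8 members had exactly 3 rule UMIs, and 12 and 13 barcodes with 2 UMIs of 2 genes stayed outside. A further 11 and 26 barcodes met the count of rule UMIs but held a Pecam1, Ptprc or Sox10 UMI.

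Markers of 6 of 12 other cell types (tenocyte, endothelial, mural, myogenic, myofibre and immune) summed to less in the members than in other barcodes of both libraries. The endothelial, immune and glial markers include Pecam1, Ptprc and Sox10, which the rule holds at 0. The sums of these 3 types are therefore partly set by the rule and are no test of identity. The 7 tenocyte markers summed to 712 and 537 CPM, against 2460.2 and 1216 CPM in other barcodes, with Tnmd at 2.53 and 0 CPM. The 5 endoneurial fibroblast markers, of the stromal cells inside the nerve bundle, summed to 321 and 439 CPM, against 211 and 135 CPM in other barcodes; their part in the results below was not tested. The 7 keratinocyte markers summed to 17.7 and 16.5 CPM, with Krt5, Krt14, Krtdap and Krt15 at 0 in both libraries, and the 8 immune markers summed to 20.2 and 78.1 CPM, against 762 and 1325 CPM in other barcodes. Of the 6 endothelial markers, Tie1 was at 0 and 4.11 CPM, yet Cdh5, which encodes VE-cadherin, was at 318 and 122 CPM in 62 and 45 members; the FAP gate defined below had 4.35 and 4.87 CPM. Msln, a mesothelial marker, was at 70.7 and 34.3 CPM against 0.138 and 0.0404 CPM in other barcodes, while Wt1, Lrrn4, Muc16 and Upk1b were at 0 in both libraries. The 7 FAP markers summed to more in members, at 13503 and 12902 CPM against 8454 and 3799 CPM in other barcodes. At least 2 of them were found in 94 and 88 members. The fibroblast gene Dcn, 1 of these markers, was at 11323 and 9863 CPM. The glial markers summed to 124 and 555 CPM, against 509 and 418 CPM in other barcodes. Of these, Cdh19 and Scn7a were highest in 1 of the 6 clusters of members described below, at 397 and 638 CPM in 8 and 9 of its 47 barcodes. In the KO library, 1 member held 11304 of the 11350 haemoglobin UMIs found among the members.

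Members were a smaller share of the KO library. They made up 1.10% of passing barcodes in the WT library (Clopper-Pearson 95% interval 0.902 to 1.33%) and 0.572% in the KO library (0.466 to 0.695%), which is 0.520 times the former. The order depended on the denominator. Set against stromal barcodes alone (members, FAP gate and tenocyte gate together), members were 6.35% (107 of 1685; 5.23 to 7.62%) and 9.33% (101 of 1083; 7.66 to 11.2%). Set against the glial gate, there were 25.4 and 15.3 members per 100 glial barcodes. A rule with a minimum of UMIs reaches more barcodes in a library with more UMIs per barcode. With every barcode thinned to 1000 UMIs before the rule was applied, 52 and 30 members remained, 0.534 and 0.170% of passing barcodes.

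Across genes, the members were compared with all other passing barcodes of the same library. A gene was counted where its CPM was at least 4-fold apart in the same direction in both libraries, after 1 CPM was added to both sides, among genes with at least 50 CPM in members or others of 1 library. The members were chosen by 5 genes, so a difference in other genes describes what travels with those 5 and is not a test. Barcodes with a Pecam1, Ptprc or Sox10 UMI were kept out of the members but stayed among the others. Lower levels of endothelial, blood and glial genes are therefore partly set by the rule. Of 5434 genes, 182 (3.35%) were higher in members and 361 (6.64%) were lower, and the median log2 ratio over all of them was -0.03 and -0.01. The highest genes included several of WNT signalling. Sfrp5, a secreted WNT antagonist, was at 1632 CPM (1508 to 1762) in the library labelled WT and 1568 CPM (1479 to 1662) in the library labelled KO against 15.1 and 15.2 CPM in other barcodes. Its log2 ratios over others were 6.66 and 6.60, and it was the gene with the highest smaller ratio among those at 100 CPM or more in members of both libraries whose UMIs did not rest on 1 barcode (at most 25%). Rspo3, an R-spondin that strengthens WNT signalling, followed at 422 and 196 CPM with log2 ratios of 6.46 and 6.46, and the ligand gene Wnt6 was at 172 and 173 CPM with 5.70 and 5.82. The WNT receptor gene Fzd2 was at 417 and 421 CPM, with log2 ratios of 4.78 and 5.56. Other genes in the top 15 were Hcn4, a pacemaker cation channel (141 and 126 CPM), Tenm2, a teneurin adhesion protein (2127 and 1253 CPM), C2, a complement protease (306 and 247 CPM), and Il33, an alarmin cytokine stored in the nucleus (1220.0 and 1259.9 CPM). Ntng1, a netrin-like guidance protein tethered to the membrane, was at 882 and 446 CPM, Klf5, an epithelial transcription factor, at 518 and 426 CPM, and Gpm6a, a neuronal membrane glycoprotein, at 265 and 149 CPM. Ralgps2 (614 and 470.2 CPM) and Ctxn3 (258 and 166 CPM) were also among the 15, and the remaining members of the 15, Mpzl2 and Ildr2, belong to the junction list below.

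**Figure D1:**
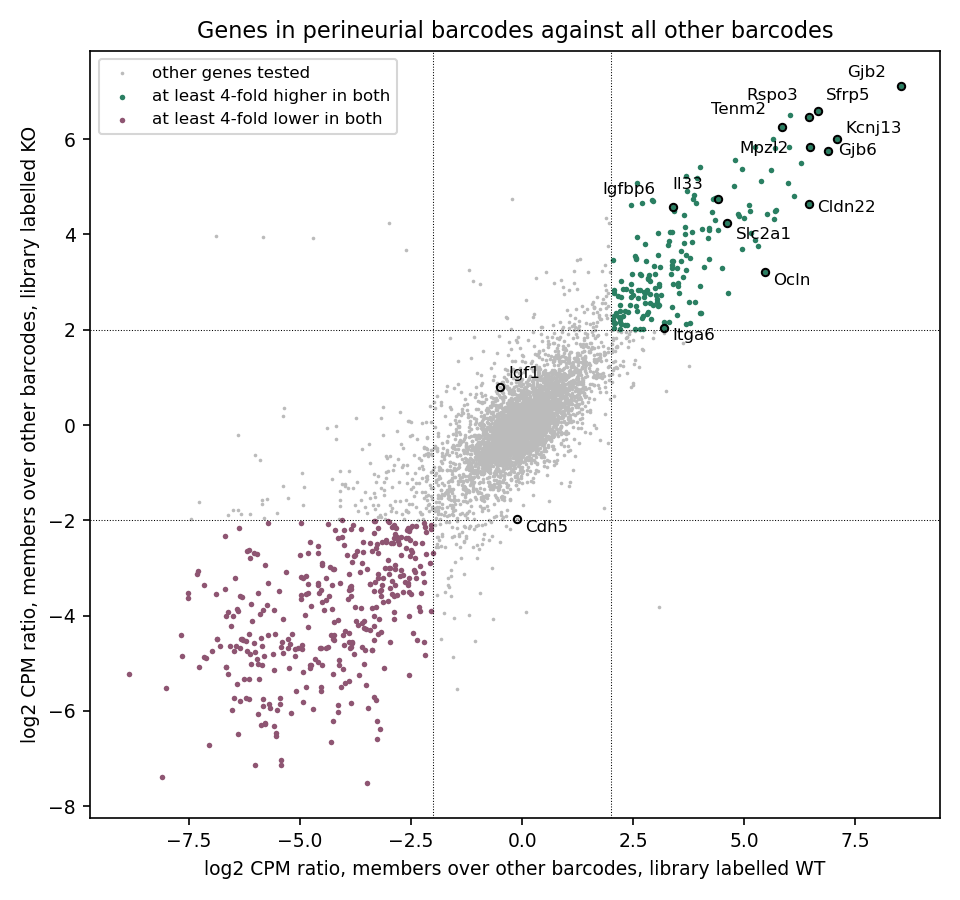
Each point is 1 of 5434 genes, with its log2 CPM ratio of members over other barcodes in the WT library (x axis) and in the KO library (y axis); dotted lines mark 4-fold. The 182 higher genes (green) include Gjb2 at 8.53 and 7.12 and Sfrp5 at 6.66 and 6.60, while Igf1 lay near 0 at -0.49 and 0.80 and Cdh5 at -0.13 and -1.98.

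Tight junction genes were mixed. Of 19 measured members of the tight junction list, 6 were higher than in other barcodes (against 3.35% of all genes) and 2 (against 6.64% of all genes), the endothelial genes Cldn5 and Esam, were lower, with list medians of 0.52 and -0.34. The claudin gene Cldn22 was at 126 CPM (93.7 to 166) in the library labelled WT and 26.0 CPM (15.7 to 40.7) in the library labelled KO, against 0.441 and 0.0807 CPM in other barcodes. Ocln, which encodes the tight junction strand protein occludin, was at 131 and 30.2 CPM against 2.01 and 2.38 CPM, and Perp, a desmosome-associated membrane protein gene, was at 187 and 141 CPM against 4.27 and 7.64 CPM. Mpzl2, an epithelial adhesion gene, was at 359 and 330.4 CPM, Ildr2, an angulin of tricellular junctions, at 374 and 304 CPM, and Cgnl1, the scaffold paracingulin, at 280.4 and 262 CPM. The scaffold gene Tjp1 was found in 94 and 88 members at 826 and 621 CPM but did not reach 4-fold, with log2 ratios of 1.70 and 1.07. Junction genes thus lay on both sides of the 4-fold line. Those of endothelial tight junctions were the lower ones, which the exclusion of Pecam1 partly sets.

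Gap junctions are channels that couple neighbouring cells, and 2 connexin genes were far higher in members than in other barcodes. Gjb2, which encodes connexin 26, was at 808 CPM (722 to 902) in the library labelled WT and 239.9 CPM (206 to 278) in the library labelled KO, in 34 and 22 members, against 1.18 and 0.727 CPM in other barcodes. Gjb6, which encodes connexin 30, was at 136 and 54.8 CPM in 17 and 7 members, against 0.165 and 0.0404 CPM; 1 barcode held 27.8 and 40.0% of its UMIs, and 1 barcode 33.1% of the Gjb2 UMIs of the KO library. With each barcode thinned to 1000 UMIs, Gjb2 had a UMI in 25.2% (17.3 to 34.6) and 10.9% (5.56 to 18.7) of members, against 0.238 and 0.604% of the glial gate. Gja1, a connexin gene made by many stromal cells, was at 520.3 and 251 CPM in members and 405 and 364 CPM in the FAP gate. Of 5 measured gap junction genes, these 2 were higher and 1 was lower, against 3.35 and 6.64% of all genes.

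Gjb2 and Gjb6 are neighbours on chromosome 14 in the RefSeq annotation of GRCm38.p6, at chr14:57098602-57104702 and chr14:57123301-57133611, and both were highest in the same cluster of members. Their RefSeq promoter windows (minus strand, 300 bases each, from 250 bases before to 50 after the start) are printed for that reason, with the GC box GGGCGG or its reverse complement CCGCCC in capitals. The Gjb2 window is chr14:57104653-57104952 and the Gjb6 window chr14:57133562-57133861.
Gjb2: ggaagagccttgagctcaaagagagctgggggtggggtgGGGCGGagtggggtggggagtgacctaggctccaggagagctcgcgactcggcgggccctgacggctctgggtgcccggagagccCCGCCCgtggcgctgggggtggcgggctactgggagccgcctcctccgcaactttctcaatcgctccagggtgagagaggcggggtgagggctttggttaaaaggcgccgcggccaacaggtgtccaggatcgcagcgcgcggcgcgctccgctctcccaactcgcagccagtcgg
Gjb6: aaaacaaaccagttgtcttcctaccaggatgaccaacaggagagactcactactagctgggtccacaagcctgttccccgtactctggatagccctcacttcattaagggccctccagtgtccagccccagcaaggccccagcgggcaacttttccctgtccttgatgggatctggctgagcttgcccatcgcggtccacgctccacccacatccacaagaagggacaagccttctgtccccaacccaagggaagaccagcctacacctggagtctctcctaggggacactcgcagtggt
The Gjb2 window holds 2 of these boxes and the Gjb6 window 0. On either strand the box is found in 35.7% of 32851 promoter windows of this length, so its presence describes the sequence and not a binding site.

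Transport genes of a barrier lay on both sides as well. Of 32 measured genes of the barrier and solute transport list, 9 were higher (against 3.35% of all genes) and 4 were lower (against 6.64%), and the list medians were 0.74 and 0.68. Slc2a1, the glucose transporter GLUT1 of barrier tissues, was at 674 CPM (596 to 760.3) in the library labelled WT and 824 CPM (759 to 893) in the library labelled KO against 26.5 and 42.3 CPM in other barcodes. Kcnj13, an inward rectifier potassium channel of transporting epithelia, was at 229.8 and 94.6 CPM against 0.688 and 0.494 CPM, and Abcb1a, the drug efflux pump of the blood-brain barrier, at 533 and 374 CPM against 74.6 and 73.3 CPM. Slco1a4 and Slco1c1, organic anion carriers that the brain endothelium also makes, were at 172 and 65.8 CPM and at 90.9 and 52.1 CPM. Slc7a2, a cationic amino acid carrier, was at 306 and 215 CPM, Slc6a13, a GABA and taurine carrier, at 75.8 and 34.3 CPM, and Slc4a4, a sodium bicarbonate cotransporter, at 359 and 285 CPM. The 4 lower genes were Abcb1b, Aqp1, Car3 and Car4. The close paralogs Abcb1a and Abcb1b, and Slco1a4 with its family, may share reads, and in RefSeq Kcnj13 overlaps Gigyf2, so these levels are uncertain where the authors' counting could split them.

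Basement membrane genes were mostly at the level of other barcodes. Of 27 measured, 4 were higher and 2 were lower, against 3.35 and 6.64% of all genes, with medians of 0.39 and 0.78. The higher genes were the neighbouring collagen IV chain genes Col4a3 (139 and 65.8 CPM) and Col4a4 (207 and 100.1 CPM), the fibulin gene Fbln1 (371 and 243 CPM) and Ntng1. Col4a1, a chain of the common collagen IV, was at 369 and 625 CPM against 1879 and 2198 CPM in the FAP gate, and Lama2, the laminin chain of muscle and nerve, at 1339 and 891 CPM against 2644 and 2372 CPM. Among 19 laminin and matrix receptors Itga6, the partner chain of Itgb4, was the 1 higher gene (against 3.35% of all genes). It was at 1627 CPM (1503 to 1757) in the library labelled WT and 1269.5 CPM (1189 to 1354) in the library labelled KO. After thinning to 1000 UMIs, Itga6 had a UMI in 58.9% (49.0 to 68.3) and 57.4% (47.2 to 67.2) of members, against 0.521 and 0.514% of the FAP gate.

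Signalling genes that were higher in members came mainly from the WNT and BMP list, where 10 of 20 measured genes were higher (against 3.35% of all genes) and 0 were lower, with medians of 2.23 and 2.34. Beside Sfrp5, Rspo3 and Wnt6 these included Wnt10a (58.1 and 46.6 CPM against 0.220 and 0.161 CPM in other barcodes), the secreted modulator Dkk3 (55.6 and 68.5 CPM), the transcription factor gene Lef1 (121 and 87.7 CPM, 1 barcode of the WT library held 60.4% of its UMIs there), Bmp3 (63.1 and 72.7 CPM) and the BMP antagonist Chrdl1 (427 and 540.2 CPM). Bmp7 and Notum were the others. Of 9 hedgehog genes 2 were higher, against 3.35% of all genes, with medians of 1.27 and 1.44. Ptch1, the receptor that is itself a pathway target, was at 407 and 154 CPM against 35.3 and 30.2 CPM in other barcodes. Gli1, the pathway's transcription factor and target, was at 60.6 and 101 CPM against 3.91 and 3.81 CPM. Desert hedgehog from Schwann cells is known to pattern the perineurium during development. Of 11 neurotrophic genes 1 was higher (against 3.35% of all genes), Gfra1, a GDNF co-receptor, at 561 and 406 CPM. With no floor on level, nearly undetected genes enter. The median of the log2 ratios averaged over both libraries then fell below 0 for the WNT and BMP and the hedgehog lists.

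The IGF axis is the subject of the series. Igf1, which encodes IGF-I, was at 88.4 CPM (61.6 to 123) in the library labelled WT and 106 CPM (83.3 to 132) in the library labelled KO, in 17 and 29 members, while the FAP gate held 387 and 412 CPM and the glial gate 4.28 and 3.01 CPM. After thinning to 1000 UMIs, Igf1 had a UMI in 6.54% (2.67 to 13.0) and 7.92% (3.48 to 15) of members and 24.7 and 22.1% of the FAP gate. Igf2 had no UMI in the members of either library. The binding protein gene Igfbp6, whose product prefers IGF-II, was among the most abundant member transcripts at 5206 and 4217 CPM, against 1277 and 803 CPM in the FAP gate and 11.4 and 29.6 CPM in the glial gate. Igfbp5 was at 1134 and 701 CPM and the receptor gene Igf1r at 159 and 206 CPM. Of 14 measured IGF axis genes, Igfbp6 and Igf2bp2 (80.8 and 75.4 CPM) were higher and Igfbp3 was lower than in other barcodes, against 3.35 and 6.64% of all genes.

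Lipid and retinoid genes did not lie to one side. Of 19 measured, 4 were higher and 5 lower, against 3.35 and 6.64% of all genes, with medians of -0.24 and 0.02; the higher genes included the retinoic acid binding protein gene Crabp2 (53.0 and 132 CPM), the retinol dehydrogenase gene Rdh10 (283 and 735 CPM) and Stra6, a retinol uptake receptor (152 and 65.8 CPM against 1.93 and 1.97 CPM in other barcodes). The 5 lower genes were Rbp7, Ptgs2, Fabp4, Fabp5 and Cd36, of which Fabp4, Cd36 and Rbp7 are abundant in capillary endothelium. Contractile genes were lower in 8 of 19 cases (against 6.64% of all genes) and higher in 0, with medians of -0.94 and -1.32. Of 33 fibrillar matrix genes 3 were lower and 0 higher, a share near that of all genes. Of 18 complement genes 2 were higher, C2 among them, and 4 were lower, against 3.35 and 6.64% of all genes.

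Members were next set against the most similar barcodes: a FAP gate (959 and 584 barcodes with at least 2 Pdgfra UMIs and none of Tnmd), a tenocyte gate (619 and 398 barcodes) and a glial gate (421 and 662 barcodes), the tenocyte and glial gates each with at least 3 UMIs over at least 2 of 4 marker genes. Over the FAP gate 211 of 5173 genes (4.08%) were at least 4-fold higher in both libraries and 198 (3.83%) lower. Over the tenocyte gate 326 of 5201 (6.27%) were higher and 204 (3.92%) lower, and over the glial gate 389 of 5402 (7.2%) were higher and 340 (6.29%) lower. Some of the genes that marked members off from all other barcodes were not particular to them. Sfrp5 was at 0 and 0 CPM in the FAP gate but at 289 and 240.3 CPM in the glial gate, and after thinning 22.6 and 17.4% of glial barcodes had an Sfrp5 UMI, against 64.5 and 60.4% of members. Gatm, the first enzyme of creatine synthesis, was at 510.2 and 361 CPM in members and 511 and 279 CPM in the glial gate, and Ntng1 at 322 and 270.4 CPM in the glial gate. Dcn separated members from glia, at 97.0 and 434 CPM in the glial gate. Slc2a1, Ocln, Gjb2, Kcnj13, Perp and Hcn4 were at least 4-fold higher in members than in each of the 3 gates in both libraries. VE-cadherin transcripts were higher in members than in each gate: Cdh5 was at 4.35 and 4.87 CPM in the FAP, 17.9 and 7.49 CPM in the tenocyte and 9.27 and 15 CPM in the glial gate.

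**Figure D2:**
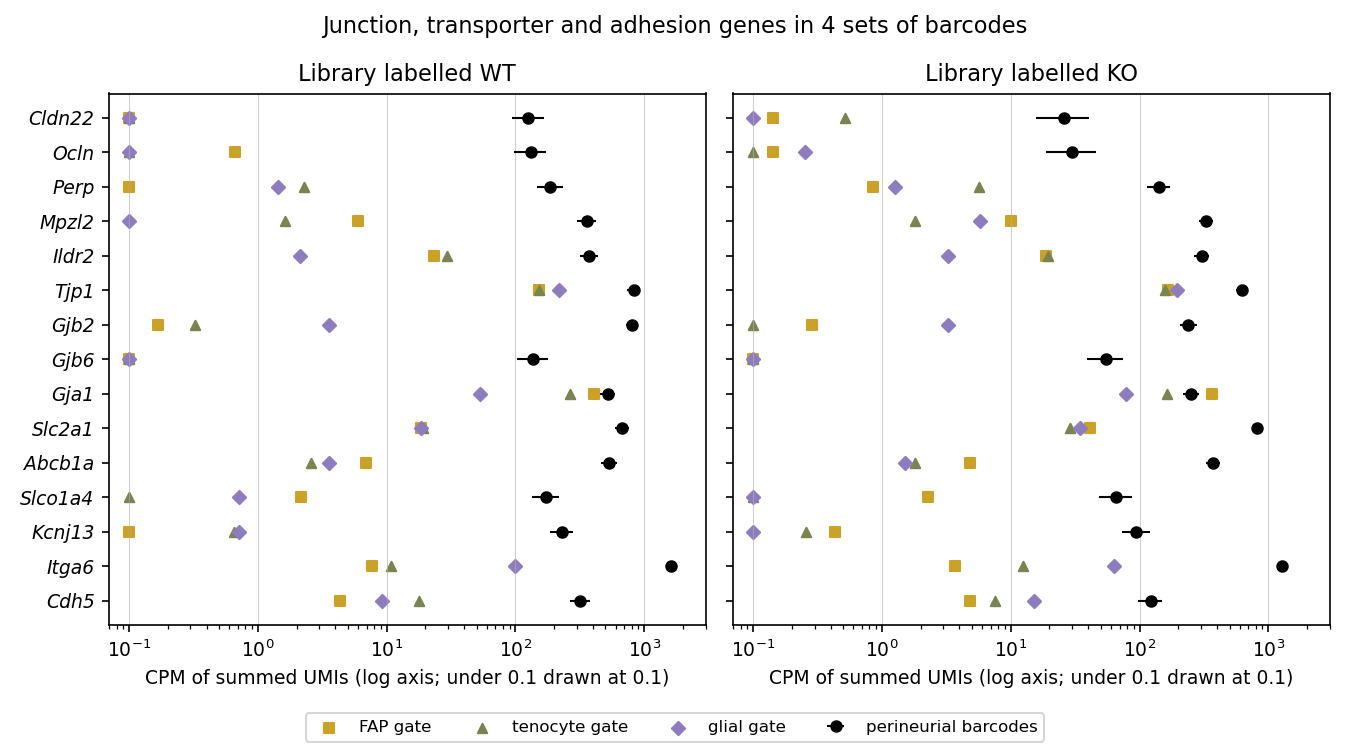
Levels of 15 junction, transporter and adhesion genes in CPM of summed UMIs (log x axis) in each library; black points are members with exact Poisson 95% intervals, and coloured symbols are the FAP, tenocyte and glial gates. Gjb2, Kcnj13 and Cldn22 were at 808, 229.8 and 126 CPM in members of the WT library and under 4 CPM in every gate, whereas Gja1 in members lay near the FAP gate.

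The members themselves fell into 6 clusters, formed without the rule and exclusion genes and called by number. Cluster 1 (37 and 11 barcodes) was led by Rhbdd2, Socs1, Cldn22 and Slmap, and held the most Sfrp5 (2699 CPM) and Itga6 (2318 CPM). Cluster 4 (23 and 13 barcodes) was led by Cspg4, Slc6a13, Il15, Bmp3 and Ptch1, with Ptch1 at 829 CPM and Tenm2 at 3569 CPM; it was the shallowest, with a median of 2553.5 UMIs. Cluster 2 (24 and 23 barcodes) was led by Pcolce2, Tagln, Lox, Gatm, Rspo3, Slco1c1 and Gfra2, and it is the cluster that held the glial transcripts and the haemoglobin-rich barcode given above. Cluster 5 (18 and 6 barcodes) was led by Gjb6, Hapln1, Rarres1, Gjb2, Nlgn1 and Luzp2.

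Connexin and organic anion carrier transcripts were divided among these clusters. Gjb2 was at 2441 CPM in cluster 5, with a UMI in 23 of 24 barcodes, and at 773 CPM in cluster 2, but at 4.88 CPM in cluster 1 and 15.8 CPM in cluster 3. Slco1a4 followed the same order, at 427 and 270.4 CPM in clusters 5 and 2 and 0 and 3.16 CPM in clusters 1 and 3. Abcb1a was at 1186 CPM in cluster 5 and 705 CPM in cluster 2, against 298 CPM in cluster 1. Slc2a1 was present more evenly, from 406 to 1442 CPM across clusters 1 to 5.

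The other clusters differed from these. Cluster 3 held 1 barcode of the WT library and 39 of the KO library, and was led by H19, F2rl1, Ccl2, Ms4a8a, Adamts9 and Ugdh. It kept Sfrp5 at 1765 CPM and Itga6 at 1749 CPM, and F2rl1, which encodes a protease-activated receptor, was at 193 CPM there and at 0 in clusters 1, 2 and 6. As it comes almost wholly from 1 library, a cell state and the library cannot be told apart. Cluster 6 (4 and 9 barcodes) had Negr1, Cxcl14, Coch and Has2 among its leading genes and did not carry the label: Itgb4 was at 15.1 CPM, Lypd2, Krt19, Sfrp5, Tenm2 and Itga6 were at 0, and Pdgfra (908 CPM), Sox9 (727 CPM) and Vcan (3111 CPM) were high. Its median of 11302 UMIs was the largest of the 6.

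**Figure D3:**
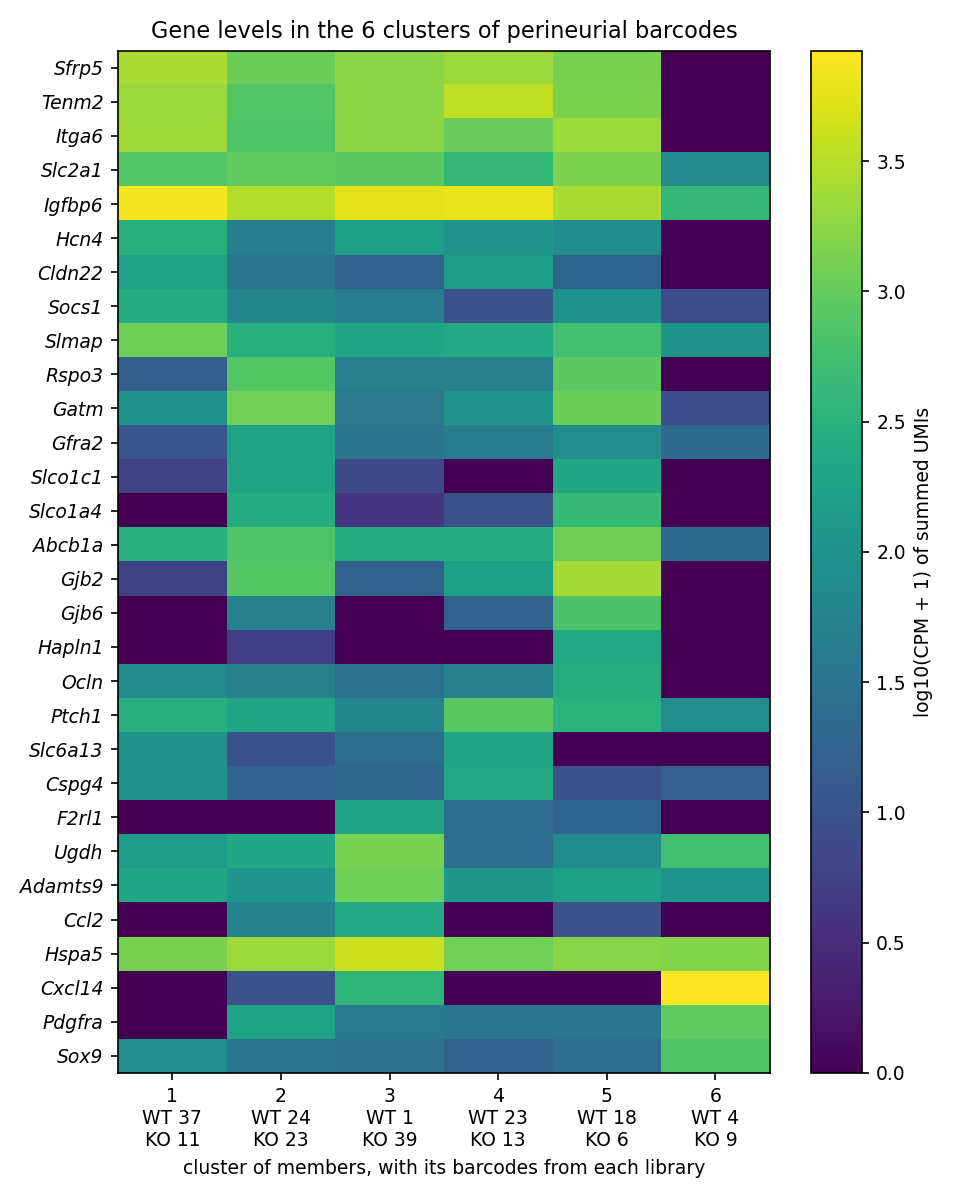
Levels of 30 genes (rows, log10 of CPM + 1 of summed UMIs) in the 6 clusters of members (columns, with the barcodes of each library under the cluster number). Gjb2 was at 2441 CPM in cluster 5 and 4.88 CPM in cluster 1, F2rl1 was highest in cluster 3 at 193 CPM, and Sfrp5 was at 0 in cluster 6 only.

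Finally, members of the KO library were compared with those of the WT library. A gene was counted at a ratio of at least 2-fold if it reached 50 CPM in either library and 40 UMIs in both together. Of 4572 genes, 324 (7.09%) were higher in the KO library and 204 (4.46%) lower, around a median log2 ratio of 0.00. Without clusters 3 and 6, a choice made after the data were seen, 118 were higher and 121 lower among 3555 genes tested, and 74 and 66 of these were also counted with all members. The count thus depended on these clusters, and for genes past 2-fold whose ratios are given below the value without clusters 3 and 6 stands beside it.

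Genes lower in the KO library included several junction genes. Of 16 tight junction genes measured here, 4 were lower (against 4.46% of all genes) and 0 higher, with a median of -0.40, and -0.04 without clusters 3 and 6. Cldn22 was at 126 and 26.0 CPM; its log2 ratio was -2.23 (-3.12 to -1.49), and -1.59 without clusters 3 and 6. Ocln was at 131 and 30.2 CPM; its log2 ratio was -2.09 (-2.91 to -1.38), and -1.62 without those clusters; after thinning it had a UMI in 5.61 and 1.98% of members, too few to order. The other lower junction genes were F11r, the junctional adhesion molecule A gene, at -1.02 and Amotl2 at -1.11, which were -0.60 and -0.39 without those clusters. Cgnl1 (-0.10 (-0.44 to 0.25)), Mpzl2 (-0.12 (-0.42 to 0.19)) and Perp (-0.40 (-0.85 to 0.05)) had intervals that held 0.

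Of 4 gap junction genes 3 were lower, against 4.46% of all genes, with a median of -1.17. Gjb2 had a log2 ratio of -1.75 (-2.03 to -1.48), Gjb6 of -1.30 (-1.94 to -0.70) and Gja1 of -1.05 (-1.35 to -0.76). Without clusters 3 and 6 these were -0.69, -0.21 and -1.03, so Gja1 alone of the 3 stayed past 2-fold. Within cluster 2, which held 24 and 23 barcodes, Gjb2 was at 1363 and 369.9 CPM. Gja1 was not lower in each cluster: it was at 681 and 722 CPM in cluster 1, 218 and 199 CPM in cluster 2 and 106 and 32.3 CPM in cluster 4, the last on 6 and 2 UMIs. Cdh5 was lower too, with a log2 ratio of -1.38 (-1.79 to -0.98), and -0.73 without clusters 3 and 6. Among 26 transport genes 5 were lower and 3 higher, against 4.46 and 7.09% of all genes. Their median was -0.16, and 0.08 without clusters 3 and 6. Kcnj13 had -1.27 (-1.75 to -0.81), Slco1a4 -1.37 (-1.95 to -0.83), Slc6a13 -1.12 (-1.97 to -0.33), Slc16a9 -1.92 and Slco2b1 -1.41. Without clusters 3 and 6 these were -0.51, -0.31, -0.46, -1.17 and -0.77. Kcnj13 was lower in cluster 2, at 239 and 49.8 CPM, but higher in cluster 4, at 284 and 436 CPM. Slc2a1 had 0.29 (0.08 to 0.50).

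Of the 15 genes highest over other barcodes, Rspo3 alone reached 2-fold between the libraries, and the 15 ratios ran from -1.10 for Rspo3 to 0.05 for Il33. The 15 had to reach 100 CPM in both libraries with at most 25% of UMIs in 1 barcode. Genes that fall far in the KO library can fail these limits, so the narrow range is partly set by the choice. Gjb2, Kcnj13, Gjb6 and Slco1a4 failed them, as did Msln, Cldn22, Stra6 and Slc6a13, though their smaller ratios over others exceeded the lowest of the 15. All of these were past 2-fold lower, whereas Wnt10a, left out likewise, had -0.31. Sfrp5 had a log2 ratio of -0.06 (-0.20 to 0.08), Wnt6 0.01 (-0.43 to 0.46), Il33 0.05 (-0.11 to 0.21) and Fzd2 0.01 (-0.26 to 0.30), whose intervals all held 0; Il33 had -0.47 without clusters 3 and 6. Tenm2 had -0.76 (-0.90 to -0.63), Ntng1 -0.98 (-1.21 to -0.76), Gpm6a -0.82 (-1.23 to -0.43) and Ctxn3 -0.63 (-1.03 to -0.24), whose intervals lay below 0, as did that of Itga6 (-0.36 (-0.50 to -0.21)). The ratio of Itga6 rose to 0.21 under an alternative, so its direction is not read. Within clusters 1, 2 and 4 Itga6 was at 2301 and 2357 CPM, 780 and 647 CPM and 870 and 1260 CPM. Ntng1 and Gpm6a had -0.16 and -0.08 without clusters 3 and 6. Rspo3 was lower at -1.10 (-1.44 to -0.77), and -0.17 without clusters 3 and 6. Of 9 hedgehog genes 2 were lower and 1, Scube1, was higher, against 4.46 and 7.09% of all genes. The lower genes were Ptch1 at -1.40 (-1.77 to -1.05) and the co-receptor gene Boc at -1.21 (-1.67 to -0.77). Gli1 had 0.73 (0.06 to 1.47) and did not reach 2-fold. The list median was 0.19, but -0.17 without clusters 3 and 6 and -1.21 with members chosen after thinning to 1000 UMIs. Ptch1 and Boc had -0.67 and -0.92 without those clusters. Within clusters 1, 2 and 4 Ptch1 was at 309 and 241 CPM, 374 and 85.4 CPM and 1047 and 630.2 CPM. The collagen IV genes Col4a3 and Col4a4 were lower at -1.07 and -1.04, and -0.08 and -0.18 without clusters 3 and 6. Of 24 basement membrane genes 3 were lower and 4 higher, against 4.46 and 7.09% of all genes. Col18a1, which holds endostatin, was higher at 65.7 and 328 CPM (2.30 (1.73 to 2.96)), and had 1.38 without clusters 3 and 6.

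**Figure D4:**
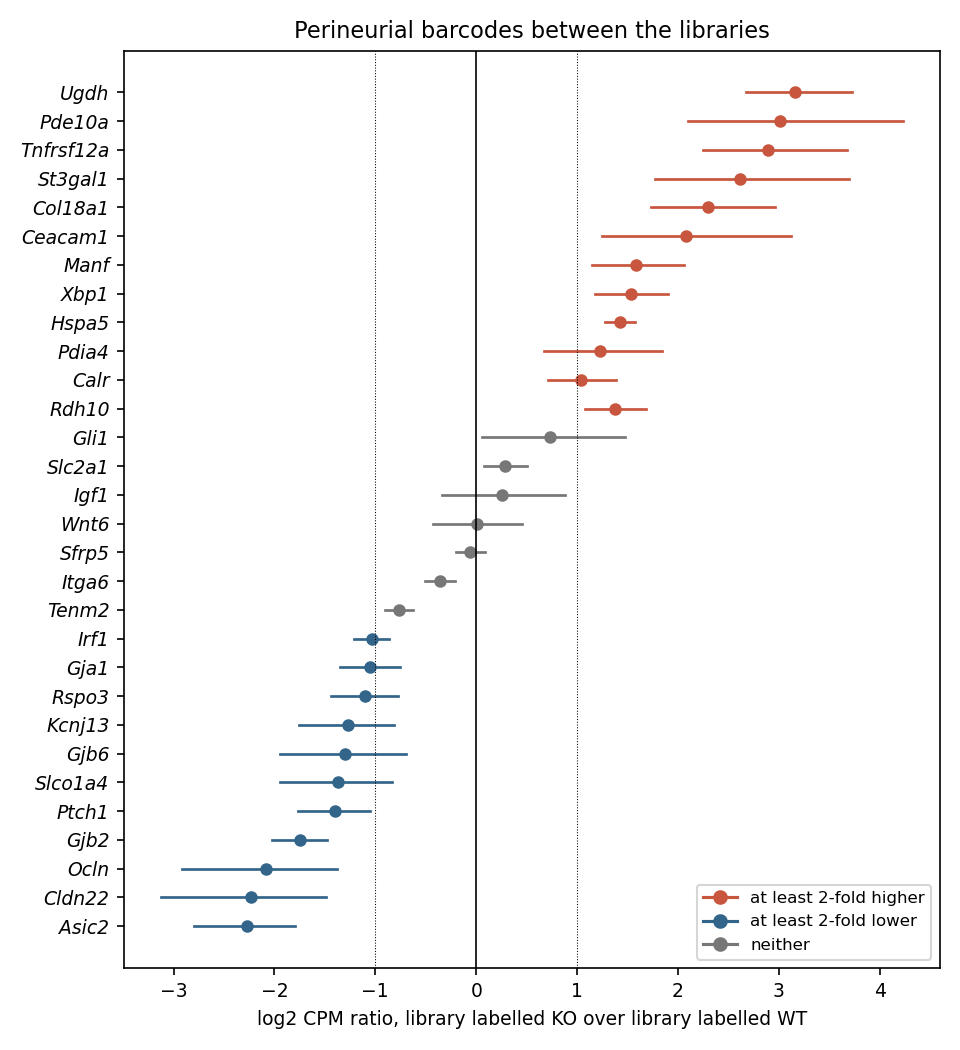
Log2 CPM ratios of members, library labelled KO over library labelled WT, for 30 genes named in the text; lines are exact conditional 95% intervals for counting error alone, and dotted lines mark 2-fold. Ugdh lay highest at 3.16 and Asic2 lowest at -2.27, while Sfrp5, Wnt6 and Igf1 had intervals that held 0.

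The genes furthest lower, by a rule that took the 12 lowest at 100 CPM or more in 1 library, were led by Asic2, an acid-sensing cation channel gene, at 321 and 65.8 CPM (-2.27 (-2.80 to -1.80)). It was also lower without clusters 3 and 6, at -2.04, and in clusters 1, 2 and 4 it was at 512 and 160.4 CPM, 229 and 7.11 CPM and 337 and 226 CPM. Beside Cldn22, Ocln and Gjb2 the others were Kcnj2, an inward rectifier channel gene (-2.04), Luzp2 (-2.02), Fhit (-1.97), the histamine receptor gene Hrh1 (-1.93), Pcdh9, a protocadherin gene (-1.86), Socs1, a brake on cytokine signalling (-1.75), the sialyltransferase gene St3gal4 (-1.73) and the ether lipid enzyme gene Agmo (-1.67). The glial gate also held Luzp2 (476 and 368 CPM) and Pcdh9 (693 and 742 CPM); the part of glial RNA in their ratios was not tested. Without clusters 3 and 6 all of these 12 but Luzp2 (-0.92) and Gjb2 were still past 2-fold, from -2.04 (Asic2) to -1.32 (Pcdh9). Other alternatives brought Pcdh9, Socs1, Cldn22, Kcnj2 and Agmo to -0.23, -0.56, -0.71, -0.79 and -0.86. Asic2, Ocln, Hrh1, St3gal4 and Fhit stayed past 2-fold under each alternative. Within cluster 1, however, Socs1, St3gal4, Hrh1 and Ocln had -0.46, -0.61, -0.75 and -0.79, while Kcnj2, Agmo, Cldn22 and Fhit had -1.99, -1.46, -1.17 and -1.01.

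The genes furthest higher were led by Ugdh, the enzyme that makes the UDP-glucuronic acid used for hyaluronan and proteoglycans, at 85.9 and 776 CPM (3.16 (2.68 to 3.72)). It was highest in cluster 3, at 1369 CPM, and without clusters 3 and 6 its log2 ratio was 1.31; the FAP gate held 848 and 973 CPM. Tnfrsf12a, the TWEAK receptor gene, was at 48.0 and 363 CPM (2.89 (2.25 to 3.68)) and had 3.07 without those clusters. Tnfrsf12a had 2 and 101 UMIs in cluster 2, which held the glial transcripts, but 2 and 2 UMIs in cluster 1. The part of cluster 2 in its ratio was not tested. In the FAP, tenocyte and glial gates its log2 ratios were 2.75, 1.09 and 0.32. The phosphodiesterase gene Pde10a had 3.01 (2.10 to 4.23), the sialyltransferase gene St3gal1 2.62 (1.77 to 3.70), Cxxc5, a zinc finger gene, 2.35 (1.35 to 3.67), and the adhesion gene Ceacam1 2.08 (1.25 to 3.12). These were 2.22, 0.74, 2.21 and 0.65 without clusters 3 and 6. The remaining genes of the 12 were Ell2 (2.41), Arrdc3 (2.37), Iqgap2 (2.02), the chemokine gene Cxcl14 (2.17) and the metallothionein gene Mt2 (1.91). Ell2, Arrdc3, Iqgap2 and Cxcl14 had 0.72, 0.84, 2.32 and 2.89 without clusters 3 and 6. Iqgap2 had 2 and 68 UMIs in cluster 2, against 10 and 4 in cluster 1. It was at 695 and 1058 CPM in the glial gate, and the part of glial RNA in its ratio was not tested. Cxcl14 rested on few barcodes, with 4 and 15 members holding a UMI and 46.2% of the UMIs of the WT library in 1 of them. Mt2 was at 1026 and 1294 CPM in other barcodes, above the members in both libraries, and had -0.15 without clusters 3 and 6.

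Genes of the unfolded protein and amino acid stress responses were the list with the most higher members. Of 14 measured, 9 were higher (against 7.09% of all genes) and 0 lower, and the median log2 ratio was 1.05, or 0.76 without clusters 3 and 6. Hspa5, the main chaperone of the endoplasmic reticulum, was at 1124 CPM (1022 to 1233) in the library labelled WT and 3019 CPM (2894 to 3148) in the library labelled KO; its log2 ratio was 1.42 (1.28 to 1.58). Within clusters 1, 2 and 4 it was at 1199.8 and 1668 CPM, 1040.2 and 2973 CPM and 994 and 1438 CPM, higher in the KO library in each. The transcription factor gene Xbp1, which drives this response, was at 194 and 563 CPM (1.53 (1.18 to 1.91)), and Manf, a secreted stress-induced factor, at 124 and 373 CPM (1.58 (1.15 to 2.06)). The protein disulphide isomerase genes Pdia4 and Pdia6 had 1.23 and 1.19, the chaperone genes Calr and Dnajb9 1.04 and 1.06, Creld2 1.19 and the transcription factor gene Atf5 1.0. Without clusters 3 and 6, 4 of these 9 were past 2-fold: Hspa5 (1.02), Manf (1.07), Pdia4 (1.09) and Pdia6 (1.02). The other ratios were 0.67 for Xbp1, 0.85 for Calr, 0.63 for Dnajb9, 0.93 for Creld2 and 0.46 for Atf5. Unlike Hspa5, not all of these genes were higher within cluster 1. There Xbp1, Calr and Atf5 had 0.75, 0.35 and 1.16, and Manf and Dnajb9 had 0.07 and 0.04. Pdia4, Pdia6 and Creld2 had -0.13, -0.16 and -1.75 in cluster 1, the last on 8 and 1 UMIs. In cluster 2 Manf, Pdia4 and Pdia6 had 1.99, 1.76 and 2.88. Hspa5 also had positive ratios in the FAP gate (0.81) and the tenocyte gate (0.76), against 0.03 in the glial gate.

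Ribosome biogenesis genes were higher in 5 of 11 cases (against 7.09% of all genes) and lower in 0, with a median of 0.95 (0.46 without clusters 3 and 6). These were the nucleolar genes Nop58 (1.04), Nolc1 (1.39), Utp20 (1.16), Gnl3 (1.12) and the helicase gene Ddx21 (1.23), which had 0.46, 0.82, 0.96, 1.06 and 1.26 without those clusters. The counts of the next lists in this paragraph stand against 7.09% higher and 4.46% lower among all genes. Of 18 TGF-beta response genes 7 were higher and 1, the receptor gene Tgfbr1 (-1.27, and -0.98 without clusters 3 and 6), lower, with a median of 0.67 that became 0.19 without those clusters; the ligand gene Tgfb1 was at 10.1 and 63.1 CPM and the feedback inhibitor gene Smad7 at 20.2 and 82.3 CPM, with log2 ratios of 2.53 and 1.97, and 1.60 and 1.35 without those clusters. Chemokine and cytokine genes had a median of 0.81 and lipid and retinoid genes of 0.68, with 5 of 11 and 5 of 14 higher and 1 lower in each; the lipid genes Fabp4 and Cd36 among them were far higher in other barcodes, at 1836 and 3626 CPM and 769 and 1513 CPM, and these medians were -0.40 and -0.15 without clusters 3 and 6. Rdh10 was at 283 and 735 CPM (1.37 (1.08 to 1.68)), and 0.83 without them. Of 17 interferon genes 3 were lower and 0 higher, with a median of -0.46; Irf1, an interferon-induced transcription factor gene, was at 1513 and 738 CPM (-1.04 (-1.21 to -0.87), and -0.97 without clusters 3 and 6) and the GTPase gene Gbp2 at 179 and 57.6 CPM (-1.62, and -1.66), with 42.9% of its KO UMIs in 1 barcode. Complement genes had a median of -0.66 over 11, with 2 lower, the anticoagulant receptor gene Thbd (-1.28, and -1.05 without clusters 3 and 6) and the plasminogen activator gene Plat (-1.01, and -0.70), and 1 higher.

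Of 12 IGF axis genes 2 were higher in the KO library (against 7.09% of all genes) and 0 lower, with a median of 0.04. Igf1 had a log2 ratio of 0.25 (-0.34 to 0.88), an interval that held 0, on 35 and 77 UMIs. Its direction turned without clusters 3 and 6, to -1.01, and with members chosen after thinning to 1000 UMIs, to -1.59. Within clusters 1, 2 and 4 its log2 ratios were -2.20, -0.79 and -1.13, on 11 and 1, 6 and 5, and 14 and 7 UMIs, so most of its UMIs in the KO library came from outside these clusters. Its log2 ratio was 0.09 in the FAP gate and -1.69 in the tenocyte gate. Since the removed part of the targeted gene is not given in the sources used here, 3' counts may lie outside it, and the level of Igf1 checks nothing about the genotype. Igfbp6 had -0.30 (-0.38 to -0.22), Igfbp5 -0.69 (-0.88 to -0.51) (-1.74 without clusters 3 and 6) and Igf1r 0.37 (-0.06 to 0.82).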

How the data were processed

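UMI counts per gene and barcode were deposited by the authors for 2 libraries, raw and with no normalisation; per the submitters' processing notes they were made with Cell Ranger 9.0.0 on build mm10, while the headers of the files give 8.0.0 (WT) and 9.0.0 (KO). Per the labels, libraries used 10x 3' chemistry of kit version 4, and both carry batch 1; strand settings are not given in the sources used here. The members and gene lists were chosen with earlier results of these data known. The counts of all members of a library were added up and divided by their total to give CPM; log2 ratios used a pseudocount of 1 CPM. Levels have exact Poisson intervals, shares Clopper-Pearson intervals and ratios exact conditional binomial intervals (without the pseudocount), all at 95% and for counting error alone. With 1 library per genotype, no p-value was computed. Gates other than the members left out barcodes with Pecam1 or Ptprc UMIs and barcodes in more than 1 gate; tenocyte markers were Tnmd, Scx, Kera and Fmod, and Sox10 and Cdh19 were among the 4 glial markers. Members were clustered on 2613 variable genes with 20 principal components, 15 neighbours and Leiden resolution 0.5 (scanpy 1.11.5). Named genes were the rule genes, the 15 highest over other barcodes, the 12 highest and 12 lowest ratios between libraries at 100 CPM and 60 UMIs, and the most abundant or most different members of each list; some that this takes are not reported here, and Cdh5, Msln, cluster genes, Igf2, Tgfb1, Tgfbr1, Smad7, Slc16a9 and Slco2b1 were picked after their values were seen. List genes Cldn25, Nrg1 and Ddit3 were not used here. Doublets were scored with Scrublet and kept: it called 132 barcodes (1.36%) in the WT library but 1 of 17651 in the KO library, where it did not work, and it called 0 members. The procedure was tested on simulated counts.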

Additional observations from a re-analysis of the deposited data

Results flagged for a closer look

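Stra6, the retinol uptake receptor gene, had ratios in opposite directions in members and in the FAP gate. In members it was at 152 and 65.8 CPM; the log2 ratio of KO over WT was -1.19, and -0.71 without clusters 3 and 6, with a UMI in 28 and 23 members. In the FAP gate it was at 6.87 and 16.8 CPM, with a log2 ratio of 1.18. With 1 library per genotype the difference between these ratios was not tested. In RefSeq Stra6 overlaps Ccdc33, so some of its counts are uncertain.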

How the results depend on the processing

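No paired analysis was possible because each genotype has 1 library. Shares of members were 0.863 and 0.453% with at least 5 rule UMIs, 0.730 and 0.295% with at least 3 rule genes, 0.534 and 0.170% with barcodes thinned to 1000 UMIs, and 0.300% in the KO library without clusters 3 and 6. The share of the KO library was lower in each of these. Genes over other barcodes were 306 higher and 1090 lower with no CPM floor, 205 lower at a floor of 100 CPM and 239 lower against the mean of the 3 gates. Genes higher and lower between the libraries were 89 and 80 with members chosen after thinning, 159 and 112 at a floor of 100 CPM, which tests fewer genes, and 118 and 121 without clusters 3 and 6. Of 67 named genes at least 2-fold apart between the libraries, the log2 ratio changed sign under an alternative in 6: F11r (0.00303), Slc6a13 (0.14), Ell2 (-0.37) and Arrdc3 (-0.12) with members chosen after thinning, and Crabp2 (-1.02) and Mt2 (-0.15) without clusters 3 and 6. Among the 43 named genes closer than 2-fold 27 changed sign under at least 1 alternative, as did 15 of the 20 list medians closer than 2-fold, so no direction is read from these. List medians over other barcodes were also taken on log2 ratios averaged over both libraries. With no CPM floor this median was -0.00376 for hedgehog and -0.17 for WNT and BMP genes. Against the mean of the 3 gates it was 0.62 for intermediate filament and desmosome genes. TMM scaling moved the median ratio of all genes between the libraries to 0.10. Leaving out clusters 3 and 6, cluster 6 alone, the haemoglobin-rich member and the highest 5% of Scrublet scores were alternatives chosen after seeing the data. Where the text gives no cause for a value that moved, the cause was not tested. The members hold 395914 and 729413 UMIs in all, so genes under about 20 CPM rest on a handful of UMIs and differences between them were not detectable at this depth.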

Other observations

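Hcn4, best known from the cardiac pacemaker, was at 141 and 126 CPM in 26 and 25 members, against 1.18 and 0.404 CPM in other barcodes, and its log2 ratio between the libraries was -0.16 (-0.66 to 0.34). It was spread over clusters 1 to 5, from 46.5 to 307 CPM, and at 0 in cluster 6.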
